A study of Mus musculus and Bos taurus with 6 samples.

Results

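miR-10 and miR-196 are 2 families of small regulatory RNA whose genes lie inside the Hox clusters, the groups of homeobox genes that set position along the body axis. Their lines were taken from the quantification lists by name, as miR-10a, miR-10b, miR-196a or miR-196b under the mouse or bovine prefix. Both arms of a hairpin were taken where they were listed. The rule found 8 of the 1750 lines of the mouse list, which the AGO2 libraries share, and 4 of the 1539 lines of the bovine list, or 12 of 3289 in all. The mouse lines were mmu-miR-10a-5p, mmu-miR-10a-3p, mmu-miR-10b-5p, mmu-miR-10b-3p, mmu-miR-196a-5p, mmu-miR-196a-2-3p, mmu-miR-196b-5p and mmu-miR-196b-3p, given in what follows without the prefix. The bovine lines carry no arm in their names, and their predicted positions placed all 4 on the 5p arm.

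The study asked which miRNA are present in the lactating mammary gland of mouse and cow and which of them are bound to AGO2, the Argonaute protein that carries a miRNA in the RNA-induced silencing complex (RISC). Total RNA of primiparous FVB/N mice at lactation day 12 gave 2 libraries, each from the gland of 1 mouse without its lymph node. Another 2 libraries held RNA that was co-immunoprecipitated with an Argonaute 2 antibody from glands of FVB/N mice at the same day. The methods describe left and right glands of 2 mice in all and do not say which mouse or gland gave which library, so a total RNA and an AGO2 library may come from the same animal. The bovine libraries came from mammary biopsies of multiparous Holstein cows in mid-lactation on a low forage (LF) diet, and each of the 2 was a pool of 2 biopsies from 2 cows. The cow and mouse tissues went through different RNA kits, so that species, kit and pooling cannot be told apart in any comparison of the bovine libraries.

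A miRNA hairpin yields a 5p and a 3p strand, of which 1 is usually retained in Argonaute as the guide while the other, the passenger, is lost. The guide finds its targets mainly through its seed, bases 2 to 8. miR-10 and miR-196 are known for their place beside Hox genes and for the repression of Hox transcripts, miR-196 with near-perfect pairing to Hoxb8. Adult tissues keep part of the Hox pattern of the embryo, and several Hox genes are known to act in mammary development.

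The sequences that the results turn on are those of the mature strands, since the paralogs of each family differ by so little that their counts rest on single bases. They are given here 5′ to 3′ from the RefSeq set of GRCm38.p6, with the seed in capitals. All 8 mouse lines were identical to the RefSeq sequences.
miR-10a-5p: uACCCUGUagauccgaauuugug
miR-10b-5p: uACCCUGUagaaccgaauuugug
miR-196a-5p: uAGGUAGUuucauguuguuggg
miR-196b-5p: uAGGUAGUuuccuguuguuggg
miR-10a-3p: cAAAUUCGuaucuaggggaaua
miR-10b-3p: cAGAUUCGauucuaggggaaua
miR-196a-2-3p: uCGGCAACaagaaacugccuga
miR-196b-3p: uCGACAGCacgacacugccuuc

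Positions counted from 1 at the 5′ end place the only difference between miR-10a-5p and miR-10b-5p at U12A and the only difference between miR-196a-5p and miR-196b-5p at A12C, both outside the seed. The pairs therefore share a seed, ACCCUGU in miR-10 and AGGUAGU in miR-196, and in each list these 2 seeds were held at bases 2 to 8 by the 2 paralogs alone. The passenger strands differ more, with 3 substitutions between miR-10a-3p and miR-10b-3p, of which A3G lies in the seed. The bovine 5p strands were identical to the mouse ones, except that bovine miR-196b ran 1 base further at the 3′ end, 23 bases against 22.

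Each family also resembles another abundant one. The letters of the miR-196 seed recur in let-7, shifted by 1 base, as the shared run in capitals shows.
miR-196a-5p: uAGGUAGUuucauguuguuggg
let-7a-5p: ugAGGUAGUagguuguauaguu

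That run of 7 bases covers positions 2 to 8 of miR-196a-5p and 3 to 9 of let-7a-5p. Outside bases 2 to 8 the letters AGGUAGU were found in 9 mouse lines, 8 of them let-7 or miR-98. miR-10a-5p has another seed than miR-100-5p of the miR-99/100 family but shares a run of 11 bases with it, given in capitals. The run covers positions 7 to 17 of miR-10a-5p and 6 to 16 of miR-100-5p, and so takes in the end of each seed.
miR-10a-5p: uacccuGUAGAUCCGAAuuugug
miR-100-5p: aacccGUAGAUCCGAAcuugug

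All 5 mouse hairpins lay in Hox clusters of GRCm38, read against the GENCODE annotation M21. Mir10a was intergenic on chromosome 11, at chr11:96317165-96317274 on the plus strand, 11044 bases after Hoxb5 and 993 bases before Hoxb4. Mir10b, at chr2:74726070-74726137 on the plus strand, lay in introns of Hoxd3 and Hoxd4 gene models. Mir196a-1, at chr11:96265164-96265265 on the plus strand, was intergenic, 6192 bases before Hoxb9. Both hairpins of the Hoxb cluster thus stood on the same strand as their Hox neighbours.

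The mature miR-196a-5p has a further copy in the Hoxc cluster. Mir196a-2, at chr15:102973350-102973434 on the plus strand, lay in an intron of a long Hoxc5 gene model, 1457 bases after Hoxc10 and 3005 bases before Hoxc9. Mir196b, at chr6:52230081-52230165 on the minus strand, overlapped an exon of Hoxa9, 1032 bases after Hoxa10. Reads of miR-196a-5p cannot be assigned to Mir196a-1 or Mir196a-2, whose mature 5p strands are identical, and miR-196b and the miR-10 strands have 1 hairpin each.

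**Figure D1:**
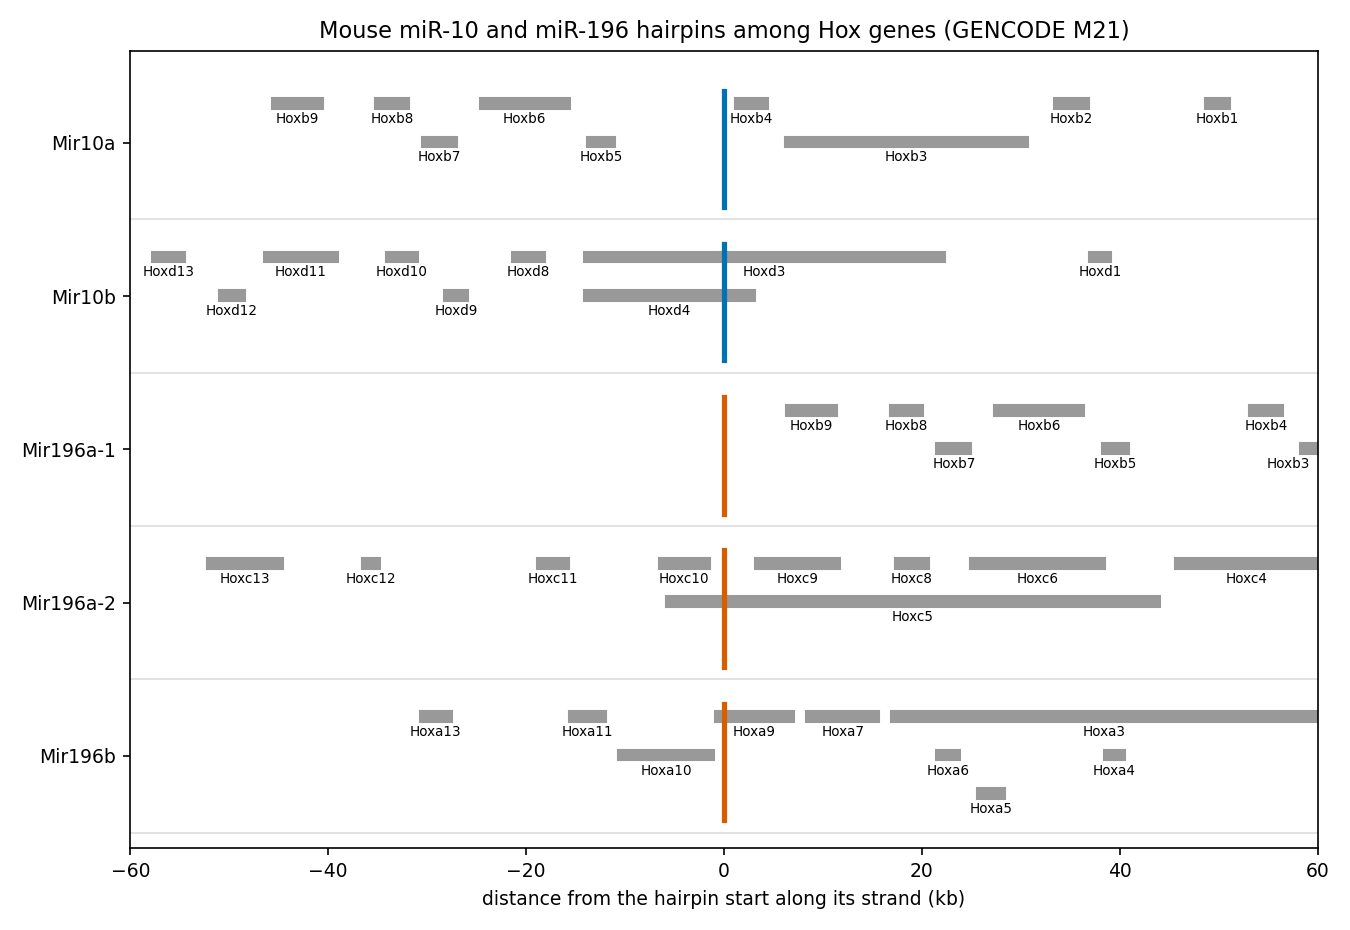
Mouse hairpins of miR-10 (blue) and miR-196 (orange) among the Hox genes of their clusters, drawn to scale as distance in kb from the start of the hairpin along its own strand, with each Hox gene as a grey bar. Around Mir10a the Hoxb genes run from Hoxb9 before it to Hoxb1 after it, no Hox gene lies in the window before Mir196a-1, and Mir10b, Mir196a-2 and Mir196b fall within the span of a Hox gene model.

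Levels are read counts of each mature strand, given as RPM over the sum of all counts of a library. The sums ran from 8391916 to 9299807 in mouse, from 3909166 to 5041406 in AGO2 and from 9402483 to 10613807 in bovine libraries, and a count of 0 allowed a level of up to 0.357, 0.767 and 0.319 RPM in the shallower library of each group. Intervals and limits cover counting error only. The tissue was checked with marker miRNA, and all 5 epithelial markers (the miR-200 family and miR-205) were counted in every library, with sums of 155444 to 181734 RPM in mouse, 334535 to 365137 RPM in AGO2 and 76764 to 78565 RPM in bovine. The liver marker miR-122-5p was at most 2.87 RPM. In these whole glands, fewer cells of a type and less RNA per cell cannot be told apart.

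miR-10b-5p was the most abundant strand of the families in every library. It had 5067 and 5198 RPM in the mouse libraries, 6831 and 5387 RPM in the AGO2 libraries and 6782 and 7481 RPM in the bovine libraries, and ranked between 24 and 40 among all lines. The means were 5133 ± 93.0 RPM in mouse, 6109 ± 1021 RPM in AGO2 and 7131 ± 494 RPM in bovine (SD, n = 2 each). The mouse libraries were the lowest, and the AGO2 and bovine values overlapped.

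miR-10a-5p followed in abundance and had another order of the groups. It had 1734 and 3069 RPM in mouse, 2041 and 1629 RPM in AGO2 and 469 and 564 RPM in bovine. The means were 2402 ± 944, 1835 ± 291 and 517 ± 67.0 RPM. Mouse and AGO2 values overlapped, and both bovine libraries lay below all the others. The mouse libraries, which came from 1 animal each, differed more in miR-10a-5p than in miR-10b-5p.

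miR-196 was found at a far lower level. miR-196a-5p had 125.5 and 124.8 RPM in mouse, 2.30 and 9.52 RPM in AGO2 and 185 and 226 RPM in bovine. The AGO2 values rest on 9 and 48 counts, with 95% exact Poisson intervals of 1.05 to 4.37 and of 7.02 to 12.6 RPM. The 3 groups did not overlap, with bovine highest and AGO2 lowest. Such positions were common in the comparisons given further on. Both AGO2 libraries lay below both mouse libraries in 39.8% of the miRNA tested, and both bovine libraries lay above them in 46.8%.

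miR-196b-5p stood near miR-196a-5p in total RNA but not in AGO2. It had 99.8 and 165 RPM in mouse, 50.1 and 28.2 RPM in AGO2 and 235 and 174.8 RPM in bovine. The AGO2 libraries were again the lowest, by a smaller margin than for miR-196a-5p. Of the mouse libraries, the one with less miR-10a-5p also held less miR-196b-5p.

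The 3p strands were minor throughout. miR-10b-3p had 45.4 and 50.5 RPM in mouse and 8.44 and 6.94 RPM in AGO2, and miR-10a-3p had 26.0 and 34.7 RPM in mouse and 0.256 and 11.5 RPM in AGO2, where the lower value is 1 count. miR-196a-2-3p had 0 counts in 3 of the 4 libraries and 1 count in AGO2 library 2, and miR-196b-3p had 0 counts in the same 3 and 6 counts in AGO2 library 2. Both listed miR-196 passengers thus stayed at or near the detection limit while their guides were at 99.8 RPM or more in mouse total RNA. The mouse list held no line for miR-196a-1-3p, the passenger of Mir196a-1, so its level is not known here. The bovine list holds the miR-10 passengers only under a human prefix, outside the rule.

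**Figure D2:**
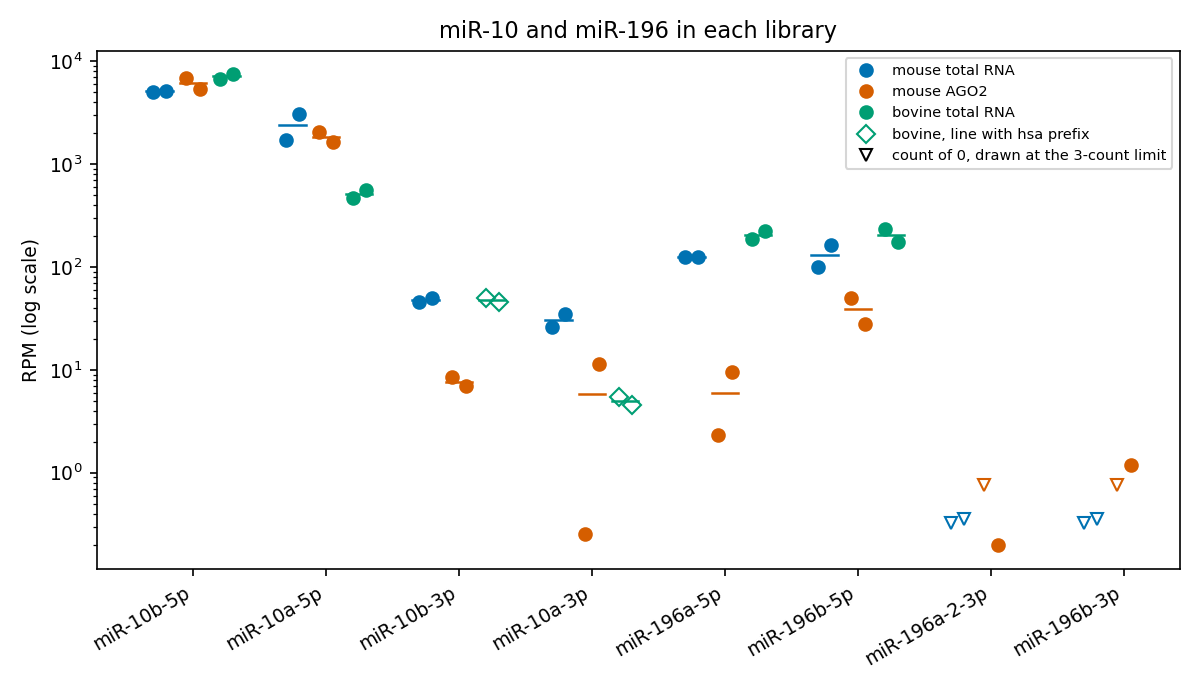
Level of each strand in each of the 6 libraries, in RPM on a log scale, with 1 point per library and a line at the mean of 2 libraries. Open diamonds are the bovine lines with a human prefix and open triangles are counts of 0 drawn at the 3-count limit; the AGO2 points of miR-196a-5p, at 2.30 and 9.52 RPM, lie below the mouse points at 125.5 and 124.8 RPM, whereas those of miR-10b-5p do not.

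The first comparison asked which strands differed between AGO2-bound and total RNA of the mouse gland. Among the miR-10 and miR-196 strands, miR-196a-5p fell by 4.20 ± 0.91 on the log2 scale (SE) in AGO2, which is 18.4-fold, with an adjusted p of 0.00177 in edgeR's quasi-likelihood test. No other strand of the families passed the test. A strand entered it above the count threshold of the study in at least 1 of the 4 libraries, and 6 of the 8 mouse lines did, without miR-196a-2-3p and miR-196b-3p. Of these, miR-196a-5p, miR-10a-3p and miR-10b-3p passed through their mouse counts alone, so their direction is in part set by the filter.

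Over all 299 miRNA tested, 12.4% were called lower in AGO2 and 15.4% higher, 27.8% in all, which is the background for the 1 member called of 6. Counted from the most depleted, miR-196a-5p was at place 9 of the 299, and the median of all tested was −0.12. The call held under all 9 alternatives of processing, with log2 fold changes from −5.52 to −3.18 and adjusted p from 2.52e-05 to 0.0222 (edgeR or DESeq2). AGO2 library 1, with 9 counts, was the lower of the pair, and without it the call stood.

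The paralog miR-196b-5p had a log2 fold change of −1.63 ± 0.71, with both AGO2 libraries below both mouse libraries, but an adjusted p of 0.0832 in edgeR. Non-overlap in this direction was found for 39.8% of all miRNA tested, so that it is common in these data. The difference between the paralogs in their response was not tested as such. It can be read from their shares, which do not depend on library size, as given further on.

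Neither miR-10 guide passed the test. miR-10b-5p had a log2 fold change of 0.40 ± 0.47 (adjusted p = 0.509 in edgeR), with both AGO2 libraries above both mouse libraries, a position shared by 33.1% of all miRNA. miR-10a-5p had −0.25 ± 0.56 (adjusted p = 0.728 in edgeR) with overlapping groups, and without mouse library 2 its value was 0.22. A p that misses the threshold does not show that the guides were equal in the groups, and an SE of about this size leaves room for changes in either direction.

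The miR-10 passengers were lower in both AGO2 libraries than in both mouse libraries without passing the test. The log2 fold change was −2.49 ± 1.12 for miR-10b-3p (adjusted p = 0.0909 in edgeR) and −2.15 ± 1.48 for miR-10a-3p (adjusted p = 0.270 in edgeR). miR-10b-3p was called by DESeq2, with an adjusted p of 0.0433. miR-10a-3p rested on AGO2 library 1, with its single count. Its value was −0.87 without that library and −6.59 without AGO2 library 2, the latter with an adjusted p of 0.00229 in edgeR.

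**Figure D3:**
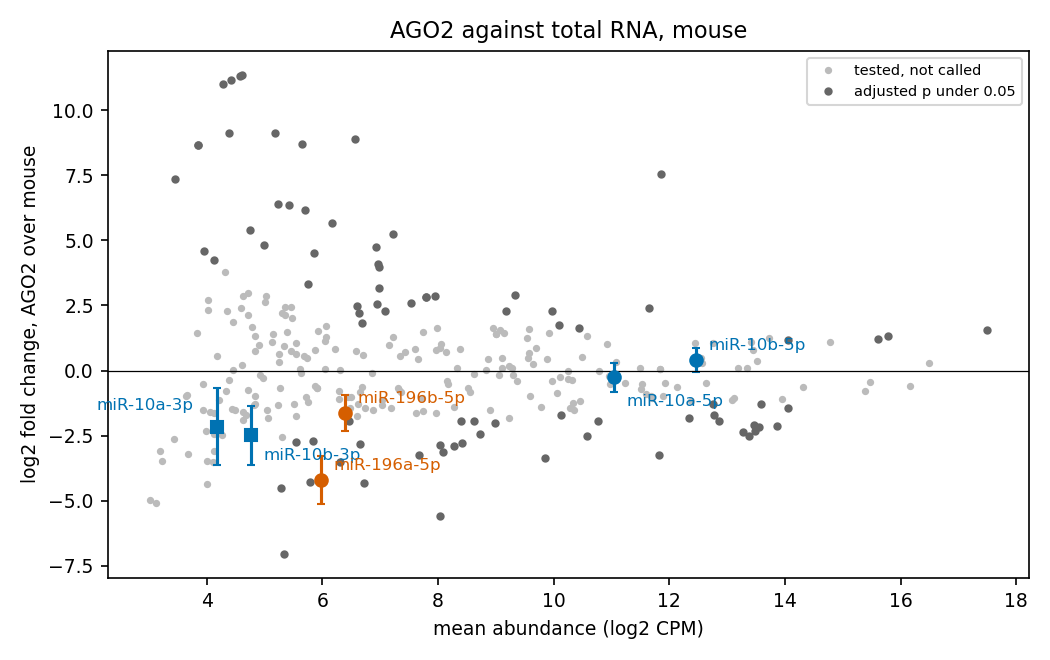
Log2 fold change of AGO2 over mouse total RNA against mean abundance (log2 CPM) for the 299 miRNA tested, dark grey where the adjusted p was under 0.05, with miR-10 in blue, miR-196 in orange, circles for 5p, squares for 3p and bars for 1 SE. miR-196a-5p stands at −4.20, miR-196b-5p at −1.63 and the miR-10 guides at −0.25 and 0.40.

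The arms of a hairpin are counted in the same library, so their shares do not depend on its size. The miR-10b hairpin shows how they lie, with the mature strands in capitals, 5p first.
Mir10b hairpin: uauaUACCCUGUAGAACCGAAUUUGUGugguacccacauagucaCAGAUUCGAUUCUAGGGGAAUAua

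The 3p strand made up 0.888% and 0.963% of the miR-10b counts in mouse and 0.123% and 0.129% in AGO2. For miR-10a the 3p share was 1.48% and 1.12% in mouse and 0.0125% and 0.701% in AGO2. Every AGO2 share was below every mouse share of the same hairpin, closely repeated in miR-10b and spread widely in miR-10a, for strands that were tested because of their mouse counts. Among the hairpins with both arms tested, this was the less common direction. Of 69 mouse hairpins with both arms tested, the arm less abundant in mouse had the lower log2 fold change in 26. The median difference, less abundant minus more abundant arm, was 1.11. Counted from the lowest difference, miR-10b was at place 7 and miR-10a at place 9. The less abundant arm was named by its mouse level, which also enters the fold change. Some such arms passed the count filter through AGO2 alone, as let-7b-3p did (1.98 and 1.40 CPM in mouse, 23.9 and 41.7 in AGO2). The count of hairpins, the median and the places are thus in part set by this choice. With 2 libraries against 2, an exact permutation test could not go below 0.333, so none was run on the shares.

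For the bovine glands, the 3p lines with a human prefix gave shares of 0.729% and 0.602% for miR-10b and of 1.14% and 0.795% for miR-10a.

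Within each family the balance of the paralogs was read from counts of the 5p strands alone. miR-10b made up 74.5% and 62.9% of the miR-10 5p counts in mouse, 77.0% and 76.8% in AGO2 and 93.5% and 93.0% in bovine. As a ratio, miR-10b stood at 2.92 and 1.69 to 1 of miR-10a in mouse and at 14.5 and 13.3 to 1 in bovine. The bovine shares lay above all the others, and the AGO2 shares lay above the mouse shares by less than the mouse libraries differed from each other. Because 1 base separates the paralogs, a counting that allows mismatches could share reads between them, and this was not tested.

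The miR-196 paralogs were near balance in total RNA. miR-196b made up 44.3% and 56.9% of the miR-196 5p counts in mouse and 55.9% and 43.6% in bovine, which overlap, against 95.6% and 74.7% in AGO2. The AGO2 shares rest on 205 and 190 counts, with exact binomial 95% intervals of 91.8% to 98.0% and of 67.9% to 80.7%. Both lie above all 4 libraries of total RNA beyond counting error, and the AGO2 libraries also differ from each other by more than it.

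Set against each other, the families stood further apart in AGO2. miR-10 5p counts were 30.2 and 28.6 times the miR-196 5p counts in mouse, 169 and 186 times in AGO2 and 17.2 and 20.1 times in bovine. On the log2 scale the means were 4.88 ± 0.0566, 7.47 ± 0.0975 and 4.22 ± 0.156 (SD, n = 2 each), and the groups did not overlap. The sum of the miR-196 guides was 225 and 289 RPM in mouse and 52.4 and 37.7 RPM in AGO2, while that of the miR-10 guides was 6801 and 8267 RPM against 8871 and 7015 RPM. In RPM the AGO2 sums of miR-196 thus lay below the mouse sums, while the miR-10 sums of mouse and AGO2 overlapped. RPM are relative to all counts of a library, and which family carried the difference in ratio was not tested.

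**Figure D4:**
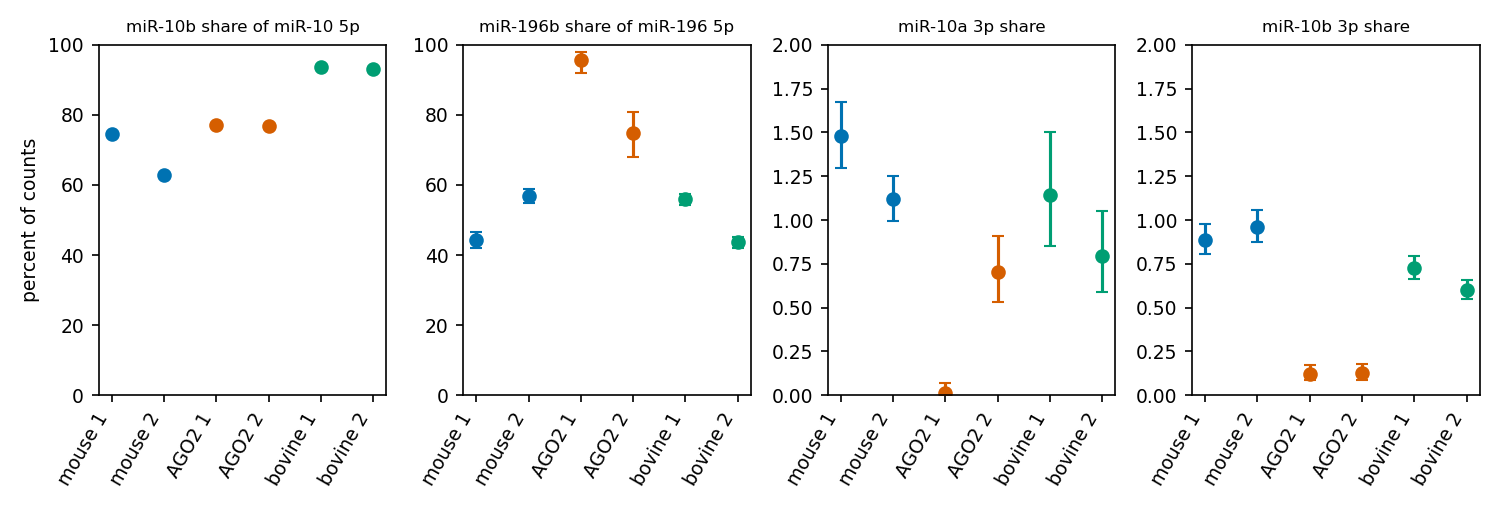
Share of counts in each library, in percent, for miR-10b among the miR-10 5p strands, miR-196b among the miR-196 5p strands and the 3p strand of miR-10a and of miR-10b, with 1 point per library and exact binomial 95% intervals for counting error. The first 2 axes run to 100% and the others to 2%; bovine libraries stand apart in the first panel, at 93.5% and 93.0%, and AGO2 libraries in the second, at 95.6% and 74.7%.

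Relatives by sequence differed between the families. All 10 let-7 and miR-98 5p miRNA tested fell in AGO2, against 12.4% of all miRNA, with log2 fold changes from −3.50 to −1.82 and a median of −2.35. They were chosen as a family, with earlier results of these data known. Of the 10, 8, without let-7e-5p and let-7j, hold the letters shared with the miR-196 seed. The value of miR-196a-5p, −4.20 ± 0.91, lay below that of each of the 10, of which let-7j was lowest at −3.50 ± 0.77 (SE). These differences were not tested. Both miR-196a-5p and let-7j passed the count filter through their mouse counts alone, and the value of miR-196a-5p was −3.18 without AGO2 library 1. Of the 5 members of the miR-99, miR-100 and miR-125 family, to which miR-10 is related, miR-99b-5p rose (2.30 ± 0.68, adjusted p = 0.0151 in edgeR) and the other 4 did not pass the test, with a median of 1.00 over the list. miR-615-3p, which comes from a hairpin in the Hoxc cluster, had 2.43 ± 0.93 and an adjusted p of 0.0561 in edgeR.

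Markers of cell types also differed between AGO2 and total RNA, not always in 1 direction within a list. The higher epithelial sum in AGO2 was carried by miR-200a-3p (1.58) and miR-141-3p (1.34), called higher on the log2 scale, while miR-200b-3p (−1.43) and miR-200c-3p (−1.71) were called lower and miR-205-5p (0.26) was not called. The 5 fibroblast and contractile markers, all counted, summed to 54443 to 71185 RPM in mouse and 35114 to 37249 RPM in AGO2. None of the 5 was called, and their directions were mixed. miR-214-3p (−1.34) and miR-143-3p (−0.79) were lower on the log2 scale, and miR-199a-3p (0.06), miR-145a-5p (0.32) and miR-199a-5p (1.57) were higher. The 3 muscle markers summed to 163 to 213 RPM in mouse and 27.9 to 70.2 RPM in AGO2, with miR-206-3p at 0 in mouse library 2. Within this list miR-1a-3p was called lower (−2.82), while miR-133a-3p went the other way (2.69) and was not called. miR-1a-3p passed the count filter through mouse alone and miR-133a-3p through AGO2 alone, so their directions are in part set by the filter. The 3 erythroid markers summed to 6504 to 13343 RPM in mouse and 15527 to 32468 RPM in AGO2. The 2 endothelial strands of miR-126a gave overlapping sums, 24194 to 34265 RPM in mouse and 28819 to 29280 RPM in AGO2, but miR-126a-3p was called lower (−1.30) and miR-126a-5p higher (1.18). The 5 leukocyte markers, all counted and none called, summed to 1263 to 2123 RPM in mouse and 2351 to 2971 RPM in AGO2. The 2 neural ones, not called either, summed to 34.3 to 97.6 RPM and 18.8 to 31.7 RPM. The part of these differences in the miR-196a-5p result was not tested.

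The second comparison set bovine against mouse total RNA, for miRNA matched by name and arm. It uses the same mouse libraries as the first. In bovine, miR-10a-5p fell by 2.37 ± 0.43 on the log2 scale, or 5.17-fold, with an adjusted p of 0.00632 in edgeR, and it was the only one of the 4 guides that passed the test. Without bovine library 1 the value was −2.21 and the adjusted p 0.0505 in edgeR, just above the threshold. The other 10 alternatives kept the call, in a range of −2.86 to −1.92.

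Calls were frequent in this comparison, with 25.9% of the 139 matched miRNA lower and 29.5% higher in bovine, so that 1 call of 4 guides is below the 55.4% called in either direction. Both bovine libraries lay below both mouse libraries in miR-10a-5p, as in 37.4% of the 139. It was at place 20 from the lowest, and the median of all was 0.21. The mature miR-10a-5p is the same in both species, and the cause of the difference in level was not tested.

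miR-10b-5p had a log2 fold change of 0.33 ± 0.27 (adjusted p = 0.334 in edgeR), with both bovine libraries above both mouse libraries, as 46.8% of all miRNA had. The miR-196 guides were higher in bovine in RPM without passing the test, miR-196a-5p by 0.58 ± 0.36 (adjusted p = 0.221) and miR-196b-5p by 0.47 ± 0.43 (adjusted p = 0.377 in edgeR). For miR-196b-5p the groups overlapped after TMM normalisation but not in RPM, and without mouse library 2 it was called at 0.86 with an adjusted p of 0.0118. These 3 guides thus did not share the direction of miR-10a-5p.

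**Figure D5:**
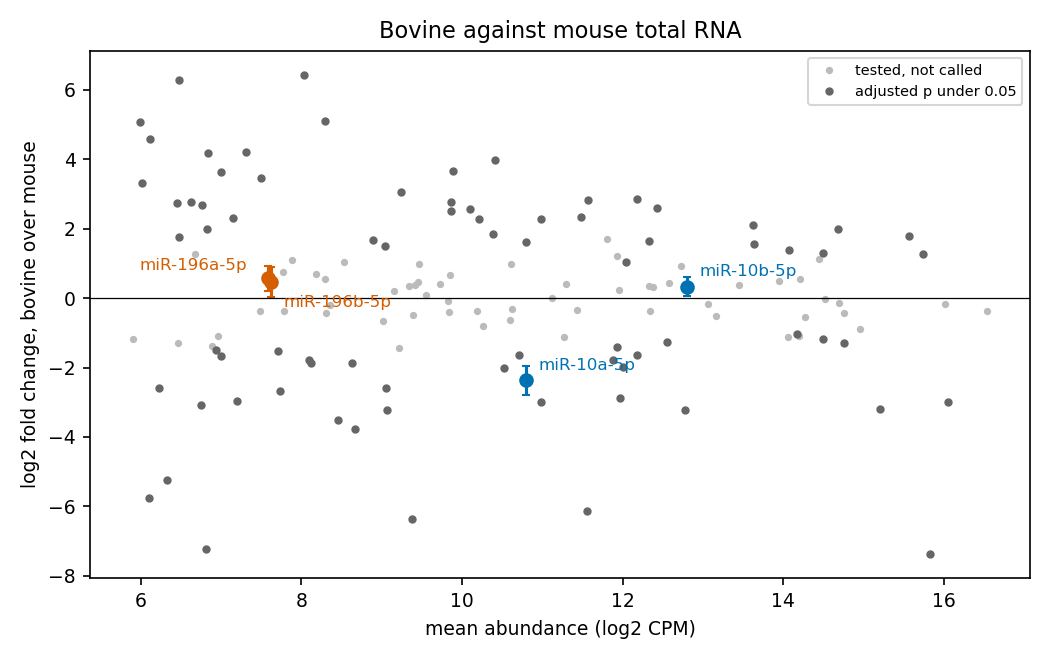
Log2 fold change of bovine over mouse total RNA against mean abundance (log2 CPM) for the 139 matched miRNA, dark grey where the adjusted p was under 0.05, with miR-10 in blue, miR-196 in orange and bars for 1 SE. miR-10a-5p stands at −2.37, and the other 3 guides lie between 0.33 and 0.58.

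The lower miR-10a-5p in cow was not shared by its relatives of the miR-99, miR-100 and miR-125 family. miR-100-5p (2.78), miR-99a-5p (2.11) and miR-125b-5p (2.82) rose on the log2 scale, 3 of 5 tested against 29.5% of all miRNA, with a list median of 2.11. Of the 9 let-7 and miR-98 miRNA tested, 2 were higher and 2 lower, against 55.4% of all miRNA called in either direction, with a median of −0.03. Both lists were chosen with earlier results of these data known. The epithelial markers summed to less in bovine than in mouse, as given above, with miR-200a-3p (−2.999) and miR-200b-3p (−1.18) called lower and miR-205-5p called higher (2.33). The muscle markers summed to more, at 727 to 782 RPM. The endothelial strands summed to 55972 to 62356 RPM in bovine, above mouse, and the fibroblast and contractile markers to 63691 to 78041 RPM, overlapping mouse. The leukocyte markers summed to 2553 to 3285 RPM, above mouse, with miR-150-5p (2.58) and miR-155-5p (2.31) called higher and miR-223-3p called lower (−1.53), and the erythroid markers to 1098 to 1709 RPM, below mouse. The part of these differences in the miR-10a-5p result was not tested.

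The miRNA whose levels followed each guide most closely over the 6 libraries were found by the Euclidean distance of centred log2(RPM + 1) values, among 142 matched miRNA. For miR-10a-5p they were miR-429-3p (0.57), miR-503-5p (0.67) and miR-30e-5p (1.01), against a median distance of 3.88. For miR-10b-5p they were miR-27b-3p (0.53), miR-532-5p (0.61) and miR-106b-5p (0.64), against 2.72. miR-196b-5p was closest to miR-24-3p (0.94), let-7g-5p (1.00) and miR-26b-5p (1.03), against 3.16. For miR-196a-5p they were miR-98-5p (1.503), miR-185-5p (1.80) and miR-379-5p (2.19), against a median of 5.46.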

How the data were processed

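The authors trimmed poly-A from the reads, retained lengths between 17 and 28 nt and used miRDeep2's quantifier on miRBase 20 precursors and on predicted ones. The mismatch setting is not given in the sources used here. The deposited values used are raw counts per mature miRNA. A deposited normalised column and the prediction lists were not used.

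RPM were computed over the summed counts of a library, with a limit of 3 counts for a count of 0. Differences were tested on counts in R 4.3.3 by edgeR 4.0.16 (TMM, two-sided quasi-likelihood F test, Benjamini-Hochberg over all miRNA tested, adjusted p under 0.05), with 2 libraries in each group. AGO2 against mouse took miRNA above the count threshold of the study in 1 library or more. Bovine against mouse took 229 miRNA matched by name and arm, of which those with 100 RPM in at least 1 library were tested. The SE is the log2 fold change over the square root of F. P-values measure the spread between single libraries, of pooled cows in bovine. Shares carry exact binomial (Clopper-Pearson) 95% intervals. DESeq2 1.42.0, other normalisations, filters and matchings and each library left out in turn were alternatives, and a fit with the study's sample numbers as a block was added later.

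Every line of the rule was named, with the relatives given by lists, the called ones by name, and the 3 closest miRNA of each guide. The members and lists were chosen with earlier results of these data known. The miR-126a name was added to the endothelial list after the files were read. Sequences are from RefSeq and positions from GRCm38. Values were computed in Python 3.11.15 with SciPy 1.17.1 and pandas 2.3.3, and plots drawn with matplotlib 3.10.9.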

Additional observations from a re-analysis of the deposited data

Results flagged for a closer look

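Some lines that no comparison used held more than a count of 0 allows. miR-196b-3p had 1.19 RPM in AGO2 library 2 and 0 counts in the other 3 libraries of the mouse list. In the bovine libraries, the line of miR-10a-3p with a human prefix had 5.42 and 4.52 RPM, and its sequence is identical to mouse miR-10a-3p. The line of miR-10b-3p with a human prefix had 49.8 and 45.3 RPM, and it shares a run of 21 bases with mouse miR-10b-3p, shifted by 1 base. No group had the number of libraries needed to look for a library apart from the rest.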

How the results depend on the processing

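The labels do not pair mouse and AGO2 libraries, and the study's sample numbers are not stated to mark the same mouse. With these numbers as a replicate block, a fit added after the data were seen, 60 miRNA were called higher and 61 lower in AGO2 (46 and 37 without), miR-196a-5p was at −4.51 with an adjusted p of 0.00386 in edgeR, and no call of a member changed. Same-numbered libraries deviated together with a Pearson correlation of 0.28 across 299 miRNA, which are not independent. The count of miRNA higher in AGO2 was 46 and fell to 29 with no filter, and it ran from 31 to 62 with 1 library left out. The count lower in AGO2 was 37 and ran from 21 to 33 with 1 library left out, with 21 without mouse library 1 and 23 without AGO2 library 1. For bovine the count higher was 41, with 17 when matched by identical sequence, which tested fewer miRNA, and 27 to 57 with 1 library left out, the lowest without bovine library 2. The count lower was 36, with 69 without a filter, 16 by identical sequence, and 19 to 51 with 1 library left out, with 19 without bovine library 1 and 22 without bovine library 2. Without a filter miR-10b-5p turned to −0.15 and miR-196b-5p to −0.023 in bovine, and miR-10a-5p ran from −0.64 to 0.22 in AGO2 with 1 library left out, the latter without mouse library 2. None of these 3 was called in either setting, and the cause was not tested. Scaling moved the median of all miRNA from 0.21 to 0.03 (DESeq2 size factors) or 0.50 (library totals) in bovine, and from −0.12 to −0.01 or −0.26 in AGO2. The directions of the 2 called strands, miR-196a-5p in AGO2 and miR-10a-5p in bovine, held under all alternatives. Depth limits the AGO2 values of miR-196a-5p and of the miR-10 passengers, which rest on 1 to 58 counts.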
